A study of Mus musculus with 12 samples.

Results

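*Axin2*, *Nkd1*, *Nkd2*, *Notum*, *Apcdd1*, *Znrf3*, *Rnf43*, *Tnfrsf19* and *Sp5* are negative feedback targets of WNT signaling, genes that β-catenin is known to turn on and whose products restrain the pathway. These 9 genes were taken as a list of names from the 49315 genes counted in brain endothelial cells of 3 *Gpr124* genotypes, and the list was drawn up with earlier results of these data known. Counts of 8 of the 9 were high enough to be tested, and *Rnf43* was too low for the test. In *Gpr124-/-* endothelium, 8 of the 8 tested genes were called lower than in wild type, where 4.21% of the 16637 tested genes were called lower and 5.67% higher. In *Gpr124ΔC/ΔC* endothelium, 5 of the 8 were called lower (*Axin2*, *Nkd1*, *Nkd2*, *Notum* and *Sp5*), against 1.03% of all tested genes called lower and 0.89% higher. Between the mutants, *Apcdd1* and *Tnfrsf19* were called lower in *Gpr124-/-* than in *Gpr124ΔC/ΔC*, that is 2 of the 8, against 1.94% of all tested genes called lower and 2.67% higher. Called means here that edgeR's quasi-likelihood test gave a p under 0.05 after Benjamini-Hochberg adjustment over the 16637 genes, and that the log2 fold change was beyond 1 in either direction. With the first letter of the embryo labels added to the fit, 5 of the 8 were called lower in *Gpr124-/-* (351 of all genes). In that fit 5 were called lower in *Gpr124ΔC/ΔC* (229 of all genes), with *Apcdd1* in place of *Sp5*, and 0 between the mutants (49 of all genes). No member was called higher in any of the 3 comparisons, and none had a positive fold change at an unadjusted p under 0.05 or was called higher by DESeq2 or limma.

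GPR124, the product of *Adgra2* in current nomenclature, is an adhesion G protein-coupled receptor that acts with RECK to pass WNT7A and WNT7B signals to Frizzled receptors on brain endothelial cells. Each of the 12 libraries came from CD31+ cells sorted from the forebrain of 1 mouse embryo at E15.5, with 4 embryos per genotype. Wild-type embryos carried intact *Gpr124*. *Gpr124ΔC/ΔC* embryos were homozygous for a CRISPR knock-in that places a V5 tag and a stop codon ahead of the region encoding the intracellular domain, so that the receptor ends after its last transmembrane helix. *Gpr124-/-* embryos were homozygous for a *lacZ* null allele. Both alleles are carried by every cell of the embryo and are not limited to endothelium, and no treatment was given. The comparisons ask how far WNT target expression in brain endothelium depends on the receptor and on its intracellular domain. Receptor protein is not measured in these data, so loss of the domain and a lower amount of receptor cannot be told apart in *Gpr124ΔC/ΔC*.

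In the canonical pathway, WNT bound to Frizzled and LRP5 or LRP6 stops the destruction complex of AXIN, APC, GSK3 and casein kinase 1 from marking β-catenin for degradation. β-Catenin then enters the nucleus, joins TCF and LEF factors and turns on target genes. Several targets feed back on the pathway at successive levels. NOTUM removes the lipid from WNT outside the cell, APCDD1 sits at the surface and blocks ligand and receptor, ZNRF3 and RNF43 remove Frizzled from the membrane, NKD1 and NKD2 bind Dishevelled, AXIN2 rebuilds the destruction complex and SP5 acts on target promoters. Brain endothelium relies on this pathway for vessel entry into the forebrain and for barrier formation.

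The stretches of 250 bases ahead of the transcription start are shown for 3 of the genes because TCF and LEF factors bind short words that can be looked for there. RefSeq promoters on GRCm38.p6 were at hand for *Sp5*, *Nkd1*, *Rnf43*, *Axin2*, *Nkd2* and *Tnfrsf19*, in 8 windows, since *Rnf43* and *Tnfrsf19* each have a pair of starts. The words searched, on both strands, were CTTTGAA and CTTTGAT as well as CTTTGTA and CTTTGTT. A match stood in 2 of the 8 windows, in *Sp5* and ahead of the downstream start of *Tnfrsf19*, and matches are in capitals below. In all, 4874 of the 32851 windows in the table held a match, or 14.8%, and 469 of them, 1.43% of all windows, held 2 or more, as *Sp5* does. The *Axin2* window, with no match, is given for comparison.
*Sp5*, chr2:70474673-70474922, + strand: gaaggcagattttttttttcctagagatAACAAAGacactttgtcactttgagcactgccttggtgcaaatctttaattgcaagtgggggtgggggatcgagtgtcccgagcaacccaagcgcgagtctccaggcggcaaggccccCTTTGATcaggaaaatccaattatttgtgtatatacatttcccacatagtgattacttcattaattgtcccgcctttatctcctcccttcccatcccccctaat
*Tnfrsf19*, downstream start, chr14:61037988-61038237, - strand: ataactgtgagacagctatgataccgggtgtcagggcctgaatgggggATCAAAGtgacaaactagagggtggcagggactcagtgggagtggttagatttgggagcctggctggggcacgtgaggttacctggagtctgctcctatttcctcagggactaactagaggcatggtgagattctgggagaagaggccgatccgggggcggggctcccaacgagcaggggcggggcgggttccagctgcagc
*Axin2*, chr11:108920099-108920348, + strand: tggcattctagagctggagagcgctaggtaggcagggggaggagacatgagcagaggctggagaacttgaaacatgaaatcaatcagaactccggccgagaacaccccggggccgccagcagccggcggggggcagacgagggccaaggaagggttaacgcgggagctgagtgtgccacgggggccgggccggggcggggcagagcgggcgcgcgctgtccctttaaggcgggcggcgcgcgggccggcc

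In the *Sp5* window, AACAAAG, which reads CTTTGTT on the other strand, lies at bases -222 to -216 from the start and CTTTGAT at bases -104 to -98. In the *Tnfrsf19* window, ATCAAAG, which reads CTTTGAT on the other strand, lies at bases -202 to -196. The GC content was 46% in the *Sp5* window, 59.2% in that of *Tnfrsf19* and 69.2% in that of *Axin2*. A match is a description of these letters and was not tested as a binding site.

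Gene counts summed to 17063091 to 22551163 reads a library in wild type, 13877572 to 16033001 in *Gpr124ΔC/ΔC* and 14987249 to 22215659 in *Gpr124-/-*. *Gpr124* itself had 42.9, 51.1, 28.3 and 31.9 TPM (reads per base of gene length, with every library brought to an equal total) in wild type, 63.4, 40.8, 34.1 and 35.2 in *Gpr124ΔC/ΔC* and 6.29, 4.03, 4.57 and 4.54 in *Gpr124-/-*. It was lower in *Gpr124-/-* than in wild type by a log2 fold change of −3.05 (SE 0.30, adjusted p = 1.35e-05, edgeR), as the labels say. The labels name each embryo with a first letter, J, K, L or M, whose meaning is not given. Wild-type replicates 1 and 2 and *Gpr124ΔC/ΔC* replicates 1 and 2 carried J, wild-type replicate 3 and *Gpr124-/-* replicate 1 carried K, wild-type replicate 4 and *Gpr124ΔC/ΔC* replicates 3 and 4 carried L, and *Gpr124-/-* replicates 2 to 4 carried M. Letter M and the *Gpr124-/-* genotype therefore cannot be told apart in those 3 embryos, and no letter held both mutants. By the study's methods the mutants came from different intercrosses, of *Gpr124ΔC/+* and of *Gpr124+/-* parents. Cross and genotype therefore cannot be told apart between the mutants.

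The libraries expressed endothelial genes, with 8 of 8 markers tested and none at 0, and summed TPM of 10529 to 13601 in wild type, 6197 to 10640 in *Gpr124ΔC/ΔC* and 5110 to 6339 in *Gpr124-/-*. Most of that difference was the tight junction gene *Cldn5* (log2 fold change −2.12 in *Gpr124-/-*), and without it the sums were 2916 to 3492, 2667 to 4328 and 3233 to 3836. Erythroid genes, chiefly globins, had summed TPM of 6654 to 11202 in wild type, 5340 to 9647 in *Gpr124ΔC/ΔC* and 17615 to 52526 in *Gpr124-/-*. Of the 7 erythroid genes, 5 were called higher in *Gpr124-/-* than in wild type and 7 higher than in *Gpr124ΔC/ΔC*. The sums of 7 markers each in wild type, *Gpr124ΔC/ΔC* and *Gpr124-/-* were 37.0 to 86.3, 18.3 to 38.9 and 35.1 to 45.2 for pericytes, 50.3 to 127, 79.0 to 142 and 106 to 136 for neurons, 430 to 486, 428 to 448 and 437 to 477 for neural progenitors, 24.4 to 83.4, 27.1 to 54.3 and 26.1 to 29.3 for fibroblasts, and 0.758 to 3.998, 0.465 to 5.16 and 0.237 to 16.8 for macrophages. Among single markers, the progenitor gene *Slc1a3* was called lower in both mutants (log2 fold change −1.95 in *Gpr124ΔC/ΔC* and −2.15 in *Gpr124-/-*) and the pericyte gene *Higd1b* lower in *Gpr124ΔC/ΔC* (−1.54). In *Gpr124-/-*, the fibroblast gene *Pdgfra* (−2.55) and the pericyte gene *Rgs5* (−1.47) were also called lower, and the pericyte gene *Abcc9* (2.66), the neuronal gene *Stmn2* (1.25) and the endothelial gene *Emcn* (1.26) higher. Between the mutants, *Abcc9* (2.75) and the pericyte gene *Kcnj8* (1.43) were called higher and *Cldn5* (−1.15) lower in *Gpr124-/-*. No marker was at 0 in every library, and the part of these other cells in the results was not tested.

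In wild-type endothelium, the 9 genes spanned a wide range of expression per length. *Apcdd1* was highest, with a mean of 614 ± 330 TPM (SD, n = 4), and *Rnf43* lowest, with 0.0927 ± 0.0727 TPM (SD, n = 4). Below *Apcdd1* came *Tnfrsf19* (220 ± 38.2 TPM) and *Nkd1* (178 ± 74.6), whose ranges overlapped, then *Notum* (18.8 ± 4.01), *Nkd2* (12.3 ± 1.64), *Axin2* (6.86 ± 0.734) and *Znrf3* (5.27 ± 1.01), whose ranges overlapped, and *Sp5* (2.55 ± 0.603). Each other neighbour in this order was separated from the next without overlap. *Notum* ranked 4 of the 9 in wild type, 8 in *Gpr124ΔC/ΔC* and 7 in *Gpr124-/-*, while *Apcdd1*, *Tnfrsf19* and *Nkd1* had the 3 highest means in each genotype. In both mutants the ranges of *Apcdd1* and *Tnfrsf19* overlapped.

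**Figure D1:**
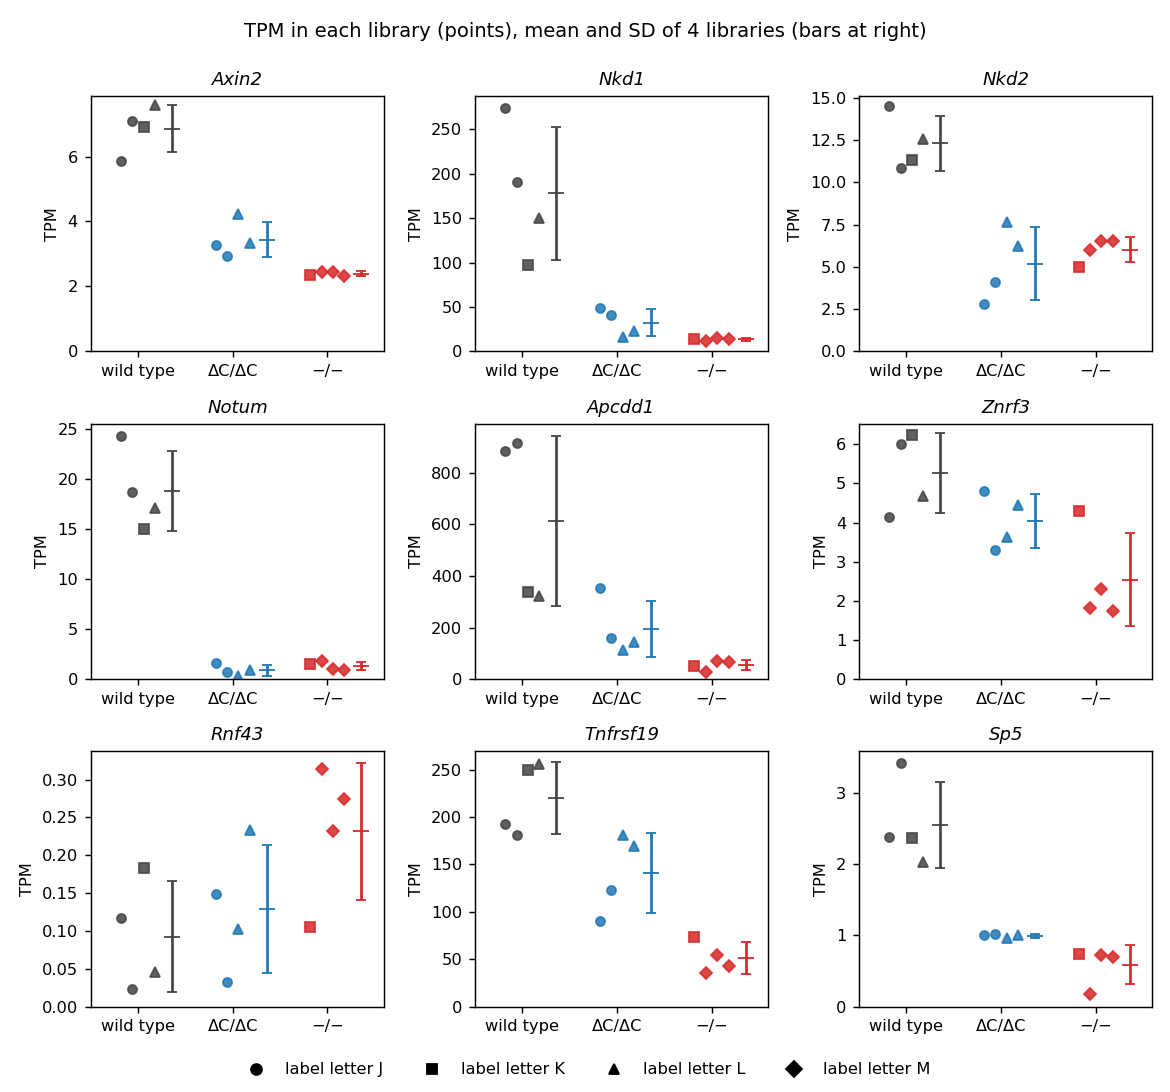
TPM (vertical axes, linear, from 0) of the 9 genes in each library, by genotype, with the shape of a point giving the label letter and the line and bar at its right the mean and SD of 4 libraries. In *Axin2*, *Nkd1*, *Nkd2*, *Notum*, *Tnfrsf19* and *Sp5* the points of both mutants lie below all 4 wild-type points, whereas in *Znrf3* and *Rnf43* they overlap them.

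The feedback genes that act inside the cell came down in both mutants. AXIN2 is a scaffold of the destruction complex and its gene is a widely used readout of β-catenin activity. *Axin2* (ENSMUSG00000000142) lies on chromosome 11 of GRCm38 from 108920349 to 108950783, on the + strand, with 14 exon blocks. It had 5.85, 7.10, 6.89 and 7.59 TPM in wild type, 3.28, 2.94, 4.22 and 3.33 in *Gpr124ΔC/ΔC* and 2.36, 2.45, 2.46 and 2.32 in *Gpr124-/-*. The 3 genotypes did not overlap, and the *Gpr124-/-* embryos lay close together, with a coefficient of variation of 2.86% against 15.9% in *Gpr124ΔC/ΔC*. In *Gpr124-/-*, *Axin2* had a log2 fold change of −1.56 (SE 0.15, adjusted p = 9.96e-06, edgeR), to 34.9% of the wild-type mean. In *Gpr124ΔC/ΔC* it fell by 1.07 (SE 0.15, adjusted p = 0.00104), to 50.2%, close to the fold threshold. Without *Gpr124ΔC/ΔC* replicate 2 that value was −0.99 (adjusted p = 0.00519), which no longer passed the fold threshold, nor did the values of limma (−0.83 on log2(TPM + 1) and −0.98 on log2(TPM + 0.1)). Fewer cells of a type and less RNA per cell cannot be told apart in such bulk libraries, here or for the genes that follow.

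NKD1 binds Dishevelled and restrains signaling below the receptor. *Nkd1* (ENSMUSG00000031661; chromosome 8, 88521354 to 88594884, + strand, 12 exon blocks) had 274, 190, 97.3 and 150 TPM in wild type. It had 48.6, 41.1, 16.9 and 23.6 TPM in *Gpr124ΔC/ΔC* and 13.6, 11.4, 15.3 and 14.0 in *Gpr124-/-*. Again no library of one genotype overlapped another genotype, and the letter J libraries were the highest of both wild type and *Gpr124ΔC/ΔC*. *Nkd1* fell 13.6-fold in *Gpr124-/-* (log2 fold change −3.77, SE 0.41, adjusted p = 2.80e-05, edgeR) and 5.63-fold in *Gpr124ΔC/ΔC* (−2.49, SE 0.38, adjusted p = 0.00228). With the label letter added to the fit, the *Gpr124-/-* value was −2.89 (adjusted p = 0.000164). *Gm45496*, a transcript of uncertain status annotated on the same strand inside the *Nkd1* span, shares no exonic base with it and had 129, 114, 116 and 132 reads in wild type against 7 to 36 in *Gpr124ΔC/ΔC* and 5 to 12 in *Gpr124-/-*. It was called lower in both mutants, with log2 fold changes of −2.14 in *Gpr124ΔC/ΔC* (adjusted p = 0.0043, edgeR) and −3.64 in *Gpr124-/-* (adjusted p = 3.60e-05).

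*Nkd2* encodes the paralog of NKD1. *Nkd2* (ENSMUSG00000021567; chromosome 13, 73818534 to 73847631, - strand, 10 exon blocks) had 14.5, 10.8, 11.3 and 12.5 TPM in wild type, 2.79, 4.11, 7.66 and 6.22 in *Gpr124ΔC/ΔC* and 4.98, 5.99, 6.54 and 6.55 in *Gpr124-/-*. Both mutants lay below wild type without overlap, but their ranges overlapped each other. *Nkd2* fell in *Gpr124ΔC/ΔC* (log2 fold change −1.35, SE 0.22, adjusted p = 0.00363, edgeR) and in *Gpr124-/-* (−1.07, SE 0.22, adjusted p = 0.00394). The *Gpr124-/-* value stood near the fold threshold and went to −0.99 without wild-type replicate 1 and to −0.97 without *Gpr124-/-* replicate 1. The call was also lost by limma on log2(TPM + 1) (−0.92) and, at a larger fold, with the label letter added to the fit (−1.23, adjusted p = 0.0698, edgeR). The mean TPM in *Gpr124-/-* was 7.62% of wild type for *Nkd1* and 48.9% for *Nkd2*.

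Of the secreted and surface antagonists of WNT, *Notum* had the largest fitted fold change of the 8 genes in both mutants, in *Gpr124-/-* by less than its SE over *Nkd1*. NOTUM is a secreted enzyme that strips the palmitoleate from WNT and so inactivates the ligand. *Notum* (ENSMUSG00000042988; chromosome 11, 120653788 to 120661175, - strand, 13 exon blocks) had 24.3, 18.7, 14.9 and 17.0 TPM in wild type. It had 1.62, 0.709, 0.278 and 0.872 TPM in *Gpr124ΔC/ΔC* and 1.51, 1.79, 1.03 and 0.953 in *Gpr124-/-*. Every mutant library lay far below every wild-type library, and the mutants overlapped each other. *Notum* fell 21.3-fold in *Gpr124ΔC/ΔC* (log2 fold change −4.41, SE 0.41, adjusted p = 6.44e-05, edgeR) and 14.7-fold in *Gpr124-/-* (−3.88, SE 0.39, adjusted p = 1.45e-05). These values rest on 239 to 456 reads per wild-type library but 3 to 24 in *Gpr124ΔC/ΔC* and 14 to 23 in *Gpr124-/-*, so that the size of the fold carries counting error. *Notum* was called under each of the 21 alternative settings in both comparisons, with log2 fold changes from −5.03 to −3.43 in *Gpr124ΔC/ΔC* and from −4.08 to −3.08 in *Gpr124-/-*.

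The antisense gene *Notumos* covers 708 exonic bases of *Notum* (29.4%), and *Myadml2os*, also antisense, covers 210 (8.72%). The sources used here do not say whether counting used strand, so reads of *Notum* and of these genes may not be separated. *Notumos* had 36, 41, 12 and 26 reads in wild type, 2 to 4 in *Gpr124ΔC/ΔC* and 0 or 1 in *Gpr124-/-*. It was called lower in both mutants (log2 fold change −3.01, adjusted p = 0.0032 in *Gpr124ΔC/ΔC*, and −4.93, adjusted p = 6.83e-05 in *Gpr124-/-*, edgeR). *Axin2* has a smaller antisense overlap, 209 bases (3.80%) with *Gm11670*, which had 9 reads in all 12 libraries together.

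**Figure D2:**
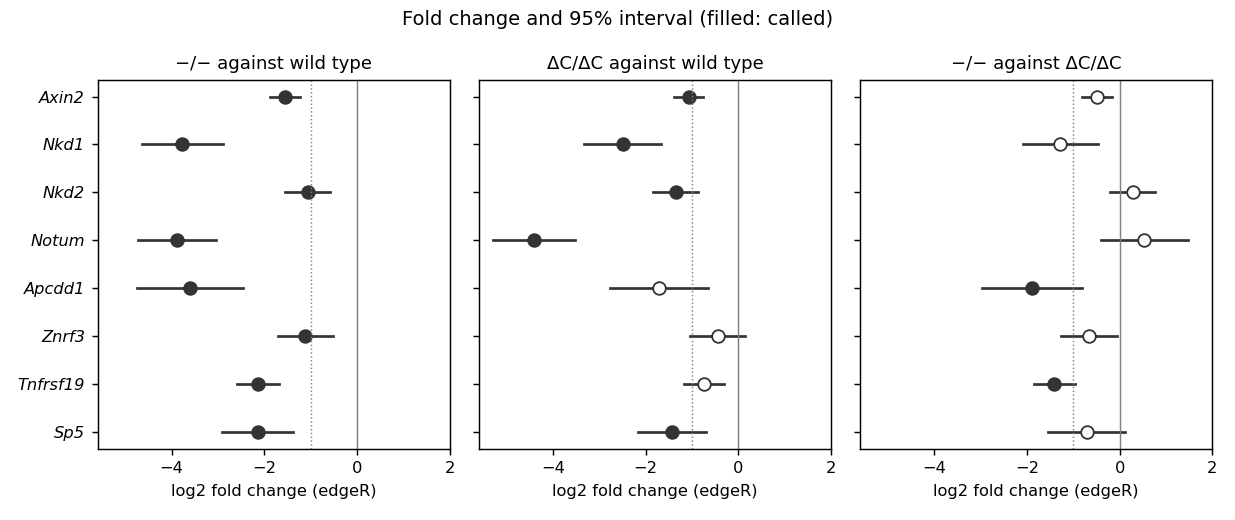
Log2 fold change (horizontal axes) of the 8 tested genes in the 3 comparisons, with 95% intervals from edgeR, filled where a gene was called and with dotted lines at −1. In *Gpr124-/-* against wild type all 8 points are filled, in *Gpr124ΔC/ΔC* against wild type 5 are, and between the mutants the filled points are *Apcdd1* and *Tnfrsf19*.

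APCDD1 is a membrane glycoprotein that binds WNT and LRP receptors and is known from retinal vessels to shape their growth and barrier. *Apcdd1* (ENSMUSG00000071847; chromosome 18, 62922327 to 62953195, + strand, 5 exon blocks) was the most abundant of the genes and had 885, 915, 337 and 321 TPM in wild type. It had 354, 159, 114 and 145 TPM in *Gpr124ΔC/ΔC* and 49.2, 27.6, 69.2 and 66.9 in *Gpr124-/-*. The letter J wild-type libraries were 2.74 times the mean of the K and L ones, and *Gpr124ΔC/ΔC* replicate 1, also letter J, exceeded wild-type replicates 3 and 4. *Apcdd1* fell 12.2-fold in *Gpr124-/-* (log2 fold change −3.61, SE 0.53, adjusted p = 0.000359, edgeR), to 8.66% of the wild-type mean. With the label letter added to the fit, the value was −2.82 (adjusted p = 0.0118). In *Gpr124ΔC/ΔC* it had 31.4% of the wild-type mean and was not called (log2 fold change −1.71, 95% interval −2.78 to −0.65, adjusted p = 0.0804). That call depended on the setting. *Apcdd1* was called in *Gpr124ΔC/ΔC* by DESeq2 (adjusted p = 0.0427), with no filter on low counts (adjusted p = 0.0490, edgeR), when the label letter was added to the fit (−1.65, adjusted p = 0.00421) and without *Gpr124ΔC/ΔC* replicate 1 (−2.31, adjusted p = 0.0140).

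Of the ubiquitin ligases that clear Frizzled from the membrane, *Znrf3* was called in *Gpr124-/-* and not in *Gpr124ΔC/ΔC*. ZNRF3 and RNF43 are transmembrane ligases that mark Frizzled for removal and are themselves held off by R-spondins and LGR receptors. *Znrf3* (ENSMUSG00000041961; chromosome 11, 5276324 to 5444847, - strand, 10 exon blocks) had 4.15, 6.002, 6.24 and 4.68 TPM in wild type, 4.80, 3.30, 3.62 and 4.45 in *Gpr124ΔC/ΔC* and 4.30, 1.83, 2.29 and 1.74 in *Gpr124-/-*. *Gpr124-/-* replicate 1, the letter K embryo, lay within the wild-type range and the letter M embryos below it. The *Gpr124-/-* call of *Znrf3* had a log2 fold change of −1.11 (SE 0.28, adjusted p = 0.0126, edgeR). The call was lost without wild-type replicate 2 (−0.996, adjusted p = 0.0383), without *Gpr124-/-* replicate 4 (−0.98, adjusted p = 0.0444) and with the label letter added to the fit (−0.58, adjusted p = 0.536), as well as by limma on log2(TPM + 1) (−0.86). In *Gpr124ΔC/ΔC* the log2 fold change was −0.45 (95% interval −1.04 to 0.15, adjusted p = 0.549), so the difference was not resolved from the spread.

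*Rnf43* (ENSMUSG00000034177; chromosome 11, 87662722 to 87735539, + strand, 11 exon blocks) had 6, 1, 8 and 2 reads in wild type, 6, 1, 3 and 8 in *Gpr124ΔC/ΔC* and 4, 11, 11 and 11 in *Gpr124-/-*. Its TPM ran from 0.0233 to 0.184 in wild type, from 0.0325 to 0.233 in *Gpr124ΔC/ΔC* and from 0.106 to 0.314 in *Gpr124-/-*, and all 3 ranges overlapped. With no filter on low counts, edgeR gave a log2 fold change of 1.27 in *Gpr124-/-* (adjusted p = 0.299) and 0.41 in *Gpr124ΔC/ΔC* (adjusted p = 0.912), and a difference was not detectable at this depth. The noncoding gene *1110028F11Rik*, on the same strand within an intron of *Rnf43*, had 9 to 22 reads in wild type and 18, 106, 77 and 88 in *Gpr124-/-*. It was called higher in *Gpr124-/-* (log2 fold change 2.47, adjusted p = 0.00332, edgeR), and it shares no exonic base with *Rnf43*.

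*Tnfrsf19* and *Sp5*, like *Axin2* and *Nkd1*, had no overlap between genotypes, with *Gpr124-/-* lowest, though not every step between genotypes was called. TNFRSF19, also called TROY, is a receptor of the tumor necrosis factor family whose gene is a known β-catenin target. *Tnfrsf19* (ENSMUSG00000060548; chromosome 14, 60963834 to 61046855, - strand, 11 exon blocks) had 193, 181.12, 250 and 255 TPM in wild type, 90.1, 123, 181.08 and 170 in *Gpr124ΔC/ΔC* and 73.0, 35.01, 54.6 and 43.2 in *Gpr124-/-*. The genotypes did not overlap, although wild-type replicate 2 and *Gpr124ΔC/ΔC* replicate 3 were nearly equal. *Tnfrsf19* fell 4.42-fold in *Gpr124-/-* (log2 fold change −2.14, SE 0.21, adjusted p = 1.11e-05, edgeR), to 23.4% of the wild-type mean. In *Gpr124ΔC/ΔC* it had 64.2% of the wild-type mean and was not called (−0.74, 95% interval −1.17 to −0.30, adjusted p = 0.0624). Over the 21 alternatives its log2 fold change stayed between −0.85 and −0.62, short of the fold threshold, while the adjusted p passed in 6 of them, among them DESeq2 (0.0128) and edgeR with the label letter (0.0011).

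SP5 is a zinc finger repressor that binds the promoters of WNT target genes. *Sp5* (ENSMUSG00000075304; chromosome 2, 70474923 to 70477729, + strand, 2 exon blocks), whose promoter window is printed above with a pair of TCF and LEF words, had 2.38, 3.42, 2.37 and 2.03 TPM in wild type. It had 1.01, 1.02, 0.958 and 1.0004 TPM in *Gpr124ΔC/ΔC* and 0.741, 0.179, 0.723 and 0.702 in *Gpr124-/-*. The genotypes again did not overlap, at low counts of 28 to 47 reads in wild type, 9 to 13 in *Gpr124ΔC/ΔC* and 2 to 11 in *Gpr124-/-*. *Sp5* fell 4.42-fold in *Gpr124-/-* (log2 fold change −2.14, SE 0.36, adjusted p = 0.000894, edgeR) and 2.70-fold in *Gpr124ΔC/ΔC* (−1.43, SE 0.34, adjusted p = 0.0334). With the label letter added to the fit, the *Gpr124-/-* value was −1.71 and not called (adjusted p = 0.264). The *Gpr124ΔC/ΔC* call was lost in 13 of the 20 alternatives that tested the gene, including each of the 4 fits without a *Gpr124ΔC/ΔC* replicate (adjusted p = 0.0579 to 0.103). The fit with the label letter was another of them (−1.40, adjusted p = 0.0575, edgeR).

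Over the 8 tested genes, the median log2 fold change was −2.14 in *Gpr124-/-* and −1.39 in *Gpr124ΔC/ΔC*, beside −0.01 and 0.01 over all 16637 tested genes. Every *Gpr124-/-* library lay below every wild-type library in TPM for 7 of the 8 genes, all but *Znrf3*, against 8.31% of all tested genes. For *Gpr124ΔC/ΔC* this held for 6 of the 8, all but *Apcdd1* and *Znrf3*, against 3.19% of all tested genes. All 8 log2 fold changes were below 0 in both comparisons, which share the same 4 wild-type libraries and so are not independent of each other.

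Between the mutants, *Apcdd1* and *Tnfrsf19* separated most. *Tnfrsf19* was lower in *Gpr124-/-* than in *Gpr124ΔC/ΔC* by 1.41 on the log2 scale (SE 0.20, adjusted p = 0.00128, edgeR), and *Apcdd1* had a log2 fold change of −1.89 (SE 0.50, adjusted p = 0.0324). The *Apcdd1* call was lost when any of *Gpr124ΔC/ΔC* replicates 1 and 2 or the 4 *Gpr124-/-* replicates was left out (adjusted p = 0.0527 to 0.0988). Its log2 fold change was −1.30 without *Gpr124ΔC/ΔC* replicate 1 and −2.05 to −1.69 in the other 5 of these fits. *Nkd1* had a log2 fold change of −1.28 and missed the threshold (95% interval −2.09 to −0.46, adjusted p = 0.0544), but it passed in 6 of 21 alternatives, DESeq2 among them (adjusted p = 0.00759). With the label letter added to the fit it was −0.25 (adjusted p = 0.958, edgeR). *Axin2* had −0.48 (95% interval −0.81 to −0.16, adjusted p = 0.0646), *Sp5* −0.71 (−1.54 to 0.11, adjusted p = 0.294) and *Znrf3* −0.67 (−1.27 to −0.06, adjusted p = 0.172, edgeR). Without *Gpr124-/-* replicate 1, *Znrf3* passed with −1.01 (adjusted p = 0.0153).

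*Notum* and *Nkd2* had positive values between the mutants. *Notum* had a log2 fold change of 0.53 (95% interval −0.41 to 1.48, adjusted p = 0.493, edgeR) and *Nkd2* 0.29 (−0.20 to 0.77, adjusted p = 0.477), and neither was called. Leaving out 1 library moved the *Notum* value to between 0.23 without *Gpr124ΔC/ΔC* replicate 3 and 1.15 without *Gpr124ΔC/ΔC* replicate 1 (adjusted p = 0.0951). These intervals do not show that the mutants express them alike. The median over the 8 genes was −0.69, beside −0.02 over all tested genes. In TPM, 5 of the 8 genes were lower in every *Gpr124-/-* library than in every *Gpr124ΔC/ΔC* library (*Axin2*, *Nkd1*, *Apcdd1*, *Tnfrsf19* and *Sp5*), against 5.4% of all tested genes. With the label letter as a term, neither *Tnfrsf19* (−1.04, adjusted p = 0.0711) nor *Apcdd1* (−1.17, adjusted p = 0.677) was called between the mutants, and since no letter holds both mutants that fit links them through the wild-type libraries alone.

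Within a label letter, each of the 8 tested genes had a mean below wild type, as over all libraries. *Rnf43*, at 4 and 8 reads, had 0.574 of the wild-type TPM in letter K, against a higher mean over all *Gpr124-/-* libraries. In letter J, with 2 embryos of each genotype, the mean TPM of *Gpr124ΔC/ΔC* was 0.480 of wild type for *Axin2*, 0.193 for *Nkd1*, 0.272 for *Nkd2*, 0.285 for *Apcdd1*, 0.0541 for *Notum*, 0.571 for *Tnfrsf19*, 0.348 for *Sp5* and 0.798 for *Znrf3*. *Znrf3* alone overlapped wild type there. In letter L, with 2 *Gpr124ΔC/ΔC* embryos and 1 wild-type embryo, the ratios were 0.497, 0.135, 0.553, 0.405, 0.0338, 0.687, 0.483 and 0.863 in the same order. In letter K, the single *Gpr124-/-* embryo had 0.342 of the single wild-type embryo's TPM for *Axin2*, 0.140 for *Nkd1*, 0.440 for *Nkd2*, 0.146 for *Apcdd1*, 0.101 for *Notum*, 0.292 for *Tnfrsf19*, 0.313 for *Sp5* and 0.688 for *Znrf3*. These ratios rest on 1 or 2 embryos a side and were not tested. The letter also moved with the level within a genotype, with *Nkd1* 1.88 times and *Apcdd1* 2.74 times higher in the J than in the other wild-type libraries. In *Gpr124ΔC/ΔC*, the J libraries had 2.22 times the L level of *Nkd1*, 1.98 times for *Apcdd1* and 2.02 times for *Notum*, but 0.497 times for *Nkd2* and 0.609 times for *Tnfrsf19*.

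**Figure D3:**
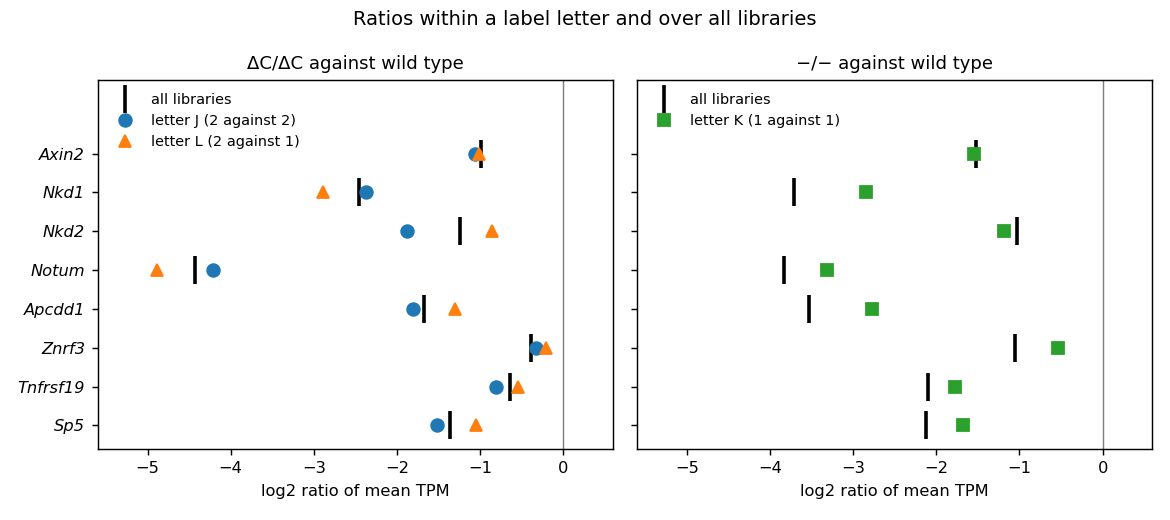
Log2 ratio of mean TPM (horizontal axes) for the 8 tested genes, mutant to wild type, within letters J and L for *Gpr124ΔC/ΔC* and within letter K for *Gpr124-/-*, with black bars for the ratio over all libraries. Every point lies left of 0, and *Znrf3* lies nearest to it in each letter.

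Over 7 other lists of pathway genes, 68 were tested. In *Gpr124-/-* 6 of them (8.82%) were called lower and 4 (5.88%) higher, beside the 4.21% and 5.67% of all tested genes. The lower ones include *Gpr124* itself, whose fall was fixed by the genotype. In *Gpr124ΔC/ΔC* 2 (2.94%) were called lower, beside 1.03% of all tested genes, and 0 higher by edgeR and limma, 1 by DESeq2 and 5 at an unadjusted p under 0.05. Of 16 genes of Dishevelled and the destruction complex, the machinery that AXIN2 belongs to, none was called in any comparison by edgeR, DESeq2 or limma, and at an unadjusted p under 0.05 there was 1 higher and 1 lower in *Gpr124-/-*, 0 in *Gpr124ΔC/ΔC* and 1 lower between the mutants. *Axin1*, the constitutive paralog of *Axin2*, had 9.89 ± 2.61 TPM in wild type, 9.89 ± 3.96 in *Gpr124ΔC/ΔC* and 10.6 ± 2.49 in *Gpr124-/-* (SD, n = 4). *Ctnnb1*, which encodes β-catenin, had 740 ± 83.5, 849 ± 191 and 736 ± 114 TPM. Among 12 tested of 15 other intracellular inhibitors, such as the Dapper, TLE and SHISA genes, none was called in any comparison by any of the 3 tools, with 2 higher and 1 lower at an unadjusted p under 0.05 in *Gpr124-/-*, 1 higher in *Gpr124ΔC/ΔC* and 1 lower between the mutants. The WNT7 ligand genes were both low, with wild-type means of 0.656 ± 0.471 TPM for *Wnt7a* and 1.70 ± 1.29 for *Wnt7b*, and neither was called by any tool or had an unadjusted p under 0.05.

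On the receptor side, 3 of 14 genes were called in *Gpr124-/-*: *Gpr124* itself and *Fzd6* lower (−1.26, adjusted p = 1.36e-05, edgeR) and *Fzd10* higher (2.63, adjusted p = 0.00273). Both FZD proteins are Frizzled receptors of WNT. In *Gpr124ΔC/ΔC* none of the 14 was called by any of the 3 tools, with 2 higher and 2 lower at an unadjusted p under 0.05. Of 7 R-spondin and LGR genes, whose products hold off ZNRF3 and RNF43, 3 were tested, and the R-spondin receptor gene *Lgr4* was called higher in *Gpr124-/-* (3.07, adjusted p = 0.00535), from 0.189 to 1.62 mean TPM. It was not called by limma.

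Of 15 other secreted antagonists, 4 of the 10 tested were called in *Gpr124-/-*. *Frzb*, *Wif1* and *Dkk3* were called lower (log2 fold changes −5.07, −3.66 and −2.47, adjusted p up to 0.000369, edgeR) and *Sost* was called higher (4.51, adjusted p = 0.000548). *Frzb* and *Wif1* encode proteins that bind WNT outside the cell, and *Sost* encodes an LRP antagonist. In *Gpr124ΔC/ΔC*, *Frzb* (−4.07, adjusted p = 3.33e-05) and *Dkk3* (−1.88, adjusted p = 0.000165) were called lower. DESeq2 and limma each called 3 lower, and 4 were lower at an unadjusted p under 0.05. None was called higher by edgeR or limma, DESeq2 called 1, and 1 was higher at an unadjusted p under 0.05. The medians of the list were −0.26 and −0.14. Of 11 tested of 14 other β-catenin targets, *Tcf7*, itself a nuclear partner of β-catenin, was called lower in *Gpr124-/-* (−1.48, adjusted p = 0.0112) and *Cd44* higher (1.04, adjusted p = 0.0421), the latter not by limma. *Lef1* stood at −0.70 on the log2 scale (adjusted p = 0.000376), under the fold threshold. None of the 11 was called in *Gpr124ΔC/ΔC* by any of the 3 tools, with 1 higher and 1 lower at an unadjusted p under 0.05. Between the mutants, the genes called over all these lists were *Gpr124* (−3.17, adjusted p = 0.000152, edgeR) and *Wif1* (−2.01, adjusted p = 0.0476), lower, and *Sost* (1.99, adjusted p = 0.0489), higher. Of the 68 genes that is 2.94% lower and 1.47% higher, beside 1.94% and 2.67% of all tested genes. The lower share again includes *Gpr124*, whose fall was fixed by the genotype. DESeq2 called 2 lower and 3 higher, and limma 1 lower, without *Wif1*, and 2 higher.

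**Figure D4:**
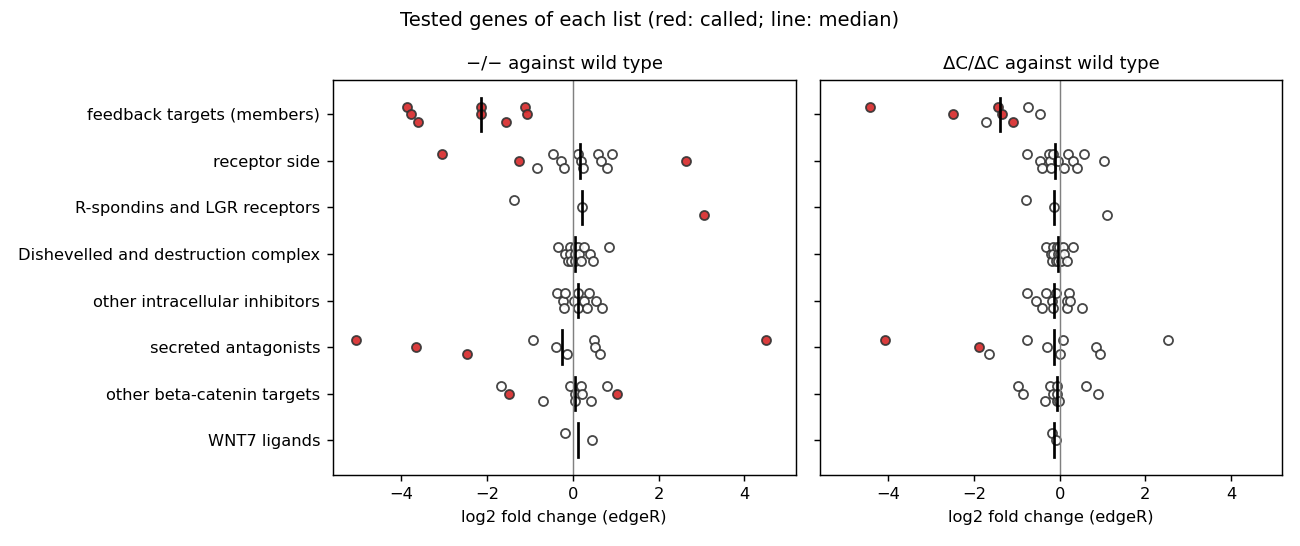
Log2 fold change (horizontal axes, edgeR) of the tested genes of each list against wild type, with called genes in red and black lines at the list medians. The medians of the feedback genes stand at −2.14 and −1.39, and those of the other lists between −0.26 and 0.22.

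The feedback genes differed among themselves in their pattern over the 12 libraries. The likeness used was the root mean square difference of log2 CPM (counts scaled to library size) centred on the wild-type mean, where 0 would be the same pattern. The values of a gene were not scaled, so genes also lie apart where only the size of their fall differs. The nearest pair was *Axin2* and *Nkd2* (0.46) and the farthest *Znrf3* and *Notum* (2.80), with *Nkd1* and *Apcdd1* at 0.63. Among 14512 genes searched, the nearest outside the list were *Rassf9* (0.16) and *Lsr* (0.17) for *Tnfrsf19*, *Tpcn1* and *Pop5* (both 0.22) for *Axin2*, *Pkp4* (0.22) and *Glcci1* (0.23) for *Znrf3*, and *Espn* (0.30) and *Nostrin* (0.32) for *Nkd2*. For *Sp5* they were *Rasgrp4* and *Ppm1h* (both 0.37), for *Nkd1* the ligand gene *Wnt5a* (0.51) and *Srarp* (0.55), for *Apcdd1* *Lrp8* (0.60) and *Btbd11* (0.66), and for *Notum* *Chst9* (0.71) and *Vstm2b* (0.83). The median difference from a searched gene ran from 0.85 for *Znrf3* to 3.42 for *Notum*. *Wnt5a* had log2 fold changes of −3.32 in *Gpr124-/-* and −2.48 in *Gpr124ΔC/ΔC*, and *Chst9* −5.94 and −4.63, each near or beyond those of its feedback gene.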

How the data were processed

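RNA of sorted CD31+/CD140b−/CD45−/7AAD− cells was amplified with SMART-Seq V4, poly(A)-selected and sequenced in paired ends. The authors deposited raw counts of reads per gene for each of 12 libraries, on GRCm38 with 49315 Ensembl genes, and TPM values made from those counts and the gene lengths, which recomputation matched to within 0.00498% at 1 TPM or more. The submitters' processing notes name bcl2fastq 2.17 and mm10. The aligner, the counting program and its use of strand are not given in the sources used here, so overlapping and antisense genes may share reads. Symbols were found for 48970 of the gene identifiers.

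Counts were fitted in R 4.3.3 with edgeR 4.0.16 (glmQLFit and glmQLFTest, genotype as the term, all 12 libraries, TMM factors of 0.946 to 1.04). The filter filterByExpr (count minimum 10, total 15, large n 10, proportion 0.7) left 16637 genes. SE is the absolute log2 fold change over the square root of F. TPM is given as mean ± SD. Calls used the thresholds of the study, 0.05 for the adjusted p and 1 for the log2 fold change in either direction. p-values measure the spread between 4 embryos per genotype, 1 per library. No pair of libraries of a genotype agreed within sampling noise. The scripts were tested on simulated counts. Alternatives were upper-quartile scaling, DESeq2 1.42.0, no filter, a mean of at least 50 counts, the label letter, only the 2 compared genotypes, no fold threshold, each library left out, and limma 3.58.1 on log2(TPM + 1) or log2(TPM + 0.1) for genes of at least 1 TPM, or on log2(TPM + 1) unfiltered.

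Named were the 9 feedback genes, *Gpr124* and up to 3 called genes per pathway list and comparison, with *Dkk3* as a further one in *Gpr124-/-*. The 2 nearest genes to each tested feedback gene, among those with at least 1 CPM (prior count 2), were also named. So were annotated genes overlapping the feedback genes. *Axin1*, *Ctnnb1*, *Wnt7a*, *Wnt7b*, *Lef1* and the single cell type markers were named after their values were seen. The 9 genes, the pathway lists and the marker lists were chosen with earlier results of these data known, so their directions are not independent evidence. Sequences are RefSeq's.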

Additional observations from a re-analysis of the deposited data

Results flagged for a closer look

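Of the 27 sets of 4 libraries looked at (the TPM of 9 feedback genes in 3 genotypes), 1 held a library far from the other 3 by Dixon's criterion, which flags about 1 set in 20 where nothing differs. *Sp5* in *Gpr124-/-* replicate 2 had 0.179 TPM, from 2 reads, whereas the other *Gpr124-/-* libraries had 0.702 to 0.741. The others had 9 to 11 reads. The gap to the nearest of them was 0.930 of the range, and its cause was not tested.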

How the results depend on the processing

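Over all alternatives, no feedback gene reversed direction. Of the results for single feedback genes, 157 stayed on their side of the thresholds in *Gpr124-/-* against wild type and 11 lost a call. In *Gpr124ΔC/ΔC* 147 stayed, 17 lost and 4 gained one, and between the mutants 152 stayed, 9 lost and 7 gained one. Among the alternatives are fits without a library of the genotype not compared, which enters only through the filter, the scaling and the shared spread. Leaving out 1 library gave 7 to 8 feedback genes called in *Gpr124-/-*, 3 to 5 in *Gpr124ΔC/ΔC* and 1 to 3 between the mutants, and 1450 to 1824, 257 to 336 and 506 to 1008 of all genes. The 3 in *Gpr124ΔC/ΔC* came without its replicate 2, and the 506 without *Gpr124-/-* replicate 4. With the label letter as a term, 5 feedback genes (846 of all genes) were called in *Gpr124-/-*, without *Nkd2*, *Znrf3* and *Sp5*. In *Gpr124ΔC/ΔC* 5 were called (428 of all genes), with *Apcdd1* and without *Sp5*. Between the mutants 0 were called (209 of all genes, 160 higher and 49 lower), where 1 feedback gene had an unadjusted p under 0.05 in that edgeR fit. DESeq2 without the term called 3 there (947 of all genes). Letter M holds only *Gpr124-/-* embryos, so by construction the fit with the letter compares *Gpr124-/-* with wild type through the single letter K pair. Limma on log2(TPM + 1) called 6 feedback genes (1195 of all genes) in *Gpr124-/-*, without *Nkd2* and *Znrf3*. It called 3 in *Gpr124ΔC/ΔC*, without *Axin2* and *Sp5*, on log2(TPM + 1) (238 of all genes), on log2(TPM + 0.1) (265) and unfiltered (193). Unfiltered, it called 1 between the mutants. Between the mutants it called 482 of all genes, or 386 unfiltered. With no fold threshold, 3295, 680 and 1468 of all genes passed, against 1644, 320 and 766 with it. *Sp5* (letter term, log2 fold change −1.71, adjusted p = 0.264, edgeR) lost its *Gpr124-/-* call under that setting only, and *Sp5* was not tested at a mean of 50 counts. The numbers in the embryo labels are not given as a pairing of embryos between genotypes, so the fit with the label letter was the one blocked fit. With 4 embryos per genotype, and few reads for *Notum*, *Sp5* and *Rnf43*, small differences could not be resolved.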
